A study of Mus musculus with 20 samples.

Results

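The genes described here make, sense, store and export cholesterol. They were chosen by gene name, with no threshold on a measured value, though earlier results of these data were known when they were listed. The rule takes the rows of the deposited expression table whose gene symbol is 1 of 32 listed, and each of the 32 was found once among the table's 59311 annotated genes. RNA sequencing was done on monocyte-derived macrophages (MoMac) sorted from fibrotic livers of 10 male C57BL/6J mice, aged 10 to 12 weeks when the injury was begun, and each mouse gave a Ly6Chi and a Ly6Clo library, 20 in all. Every mouse received carbon tetrachloride (CCl4), a hepatotoxin, at 0.6 ml/kg for 4 weeks. Mice 11 to 15 were given vehicle and mice 16 to 20 were given Ac-6-FP at 0.25 mg/kg, starting before the last CCl4 injection and going on daily for 2 days. Ac-6-FP is a pterin that binds MR1 and blocks the activation of mucosal-associated invariant T cells, and its effect on the 2 MoMac subsets is the question the study asked of these libraries. All mice were injured, so no comparison with a healthy liver is made here. The sorted cells were positive for CD11b and F4/80 after Ly6G, CD11c and CD3 positive cells had been gated out, and fewer cells of a type cannot be told apart from less RNA per cell in such bulk samples.

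Cholesterol is built from acetyl-CoA through mevalonate and squalene, and the transcription factor SREBP-2 switches the enzymes on when the endoplasmic reticulum runs low in sterol. Oxysterols made from surplus cholesterol activate the liver X receptors, which switch on the transporters that load cholesterol onto lipoproteins outside the cell. Macrophages take up cholesterol from engulfed cells and debris, esterify the excess for storage in lipid droplets, and hydrolyse the esters again for export. The 32 genes were grouped by these roles into 8 enzymes from acetyl-CoA to squalene, 10 from squalene to cholesterol, 4 genes of sterol sensing, 6 of oxysterol receptors and their targets in efflux, and 4 of ester storage, hydrolysis and transport.

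The promoters of 27 of the 32 genes were found in RefSeq's promoter table for GRCm38.p6, as windows of 300 bases from 250 before the start of transcription to 50 after it. They are shown for *Soat1* and *Nr1h3*, the genes on which the comparison of the subsets turns, and for *Hmgcs1*, whose window held the sterol regulatory element core. Capitals mark that core (TCACNCCAC) and the NF-Y box (CCAAT), both searched on both strands, where the reverse strand reads ATTGG for the NF-Y box. The sequences run 5′ to 3′ on the gene's strand, at chr1:156474279-156474578 (minus strand) for *Soat1*, chr2:91195067-91195366 (minus strand) for *Nr1h3* and chr13:119690101-119690400 (plus strand) for *Hmgcs1*.
Soat1: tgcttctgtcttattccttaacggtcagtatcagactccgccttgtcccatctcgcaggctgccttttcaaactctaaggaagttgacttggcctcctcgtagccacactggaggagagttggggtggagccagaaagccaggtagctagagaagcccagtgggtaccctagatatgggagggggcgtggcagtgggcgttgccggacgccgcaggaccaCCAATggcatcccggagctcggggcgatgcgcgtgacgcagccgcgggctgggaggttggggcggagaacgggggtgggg
Nr1h3: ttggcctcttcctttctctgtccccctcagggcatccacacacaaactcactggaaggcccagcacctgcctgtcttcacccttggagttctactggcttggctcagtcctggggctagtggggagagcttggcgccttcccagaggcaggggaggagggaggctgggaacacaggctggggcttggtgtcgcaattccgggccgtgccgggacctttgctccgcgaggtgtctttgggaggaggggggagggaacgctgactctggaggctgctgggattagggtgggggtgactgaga
Hmgcs1: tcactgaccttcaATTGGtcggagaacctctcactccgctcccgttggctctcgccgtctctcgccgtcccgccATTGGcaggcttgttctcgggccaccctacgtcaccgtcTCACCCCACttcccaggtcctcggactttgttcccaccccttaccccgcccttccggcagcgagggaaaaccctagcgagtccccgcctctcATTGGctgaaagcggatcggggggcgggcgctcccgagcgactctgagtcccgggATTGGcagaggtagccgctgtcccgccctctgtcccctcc
Of the 27 genes, 1 held the sterol regulatory element core, against 1.44% of the 27025 genes in the promoter table. The NF-Y box was found in 21 of the 27, or 77.8%, against 41.1% of all genes in the table. *Soat1* held 1 NF-Y box and no element core, and *Nr1h3* held neither in this window. A match in these letters is a description of the window and not a site.

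Between 5693049 and 18682437 reads fell on genes in each library, and 5343 to 15766 genes had a value above 0. The 6 libraries of vehicle mice 12, 13 and 14 held 5343 to 10379 genes and had 10 to 19 of the 32 cholesterol genes at 0. The other 14 libraries held 11096 to 15766 genes and had 0 to 8 of the 32 at 0. The Ly6Clo vehicle library of mouse 13 stood furthest apart, with 19 of the 32 at 0 and with 2765 of the 6652 genes whose median is at least 100 at 0. A value of 0 allows up to 3 reads, or a normalized count of 1.87 to 6.26 depending on the library, which covers counting error only. All values below are normalized counts, which are read counts divided by 1 size factor per library. They are not divided by gene length, so levels are compared between libraries and not between genes.

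All 32 genes passed the filter on low values, a mean of at least 10 in at least 1 group. *Acat2*, *Idi1*, *Fdps*, *Msmo1*, *Ebp*, *Insig1*, *Apoe*, *Soat1* and *Plin2* were above 3 reads in all 20 libraries. At the other end, *Mvk*, *Hsd17b7*, *Abca1* and *Abcg1* were at 0 in at least 10 libraries, and 22 of the 32 were at 0 in at least 1. The heat map shows where these zeros fall.

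**Figure D1:**
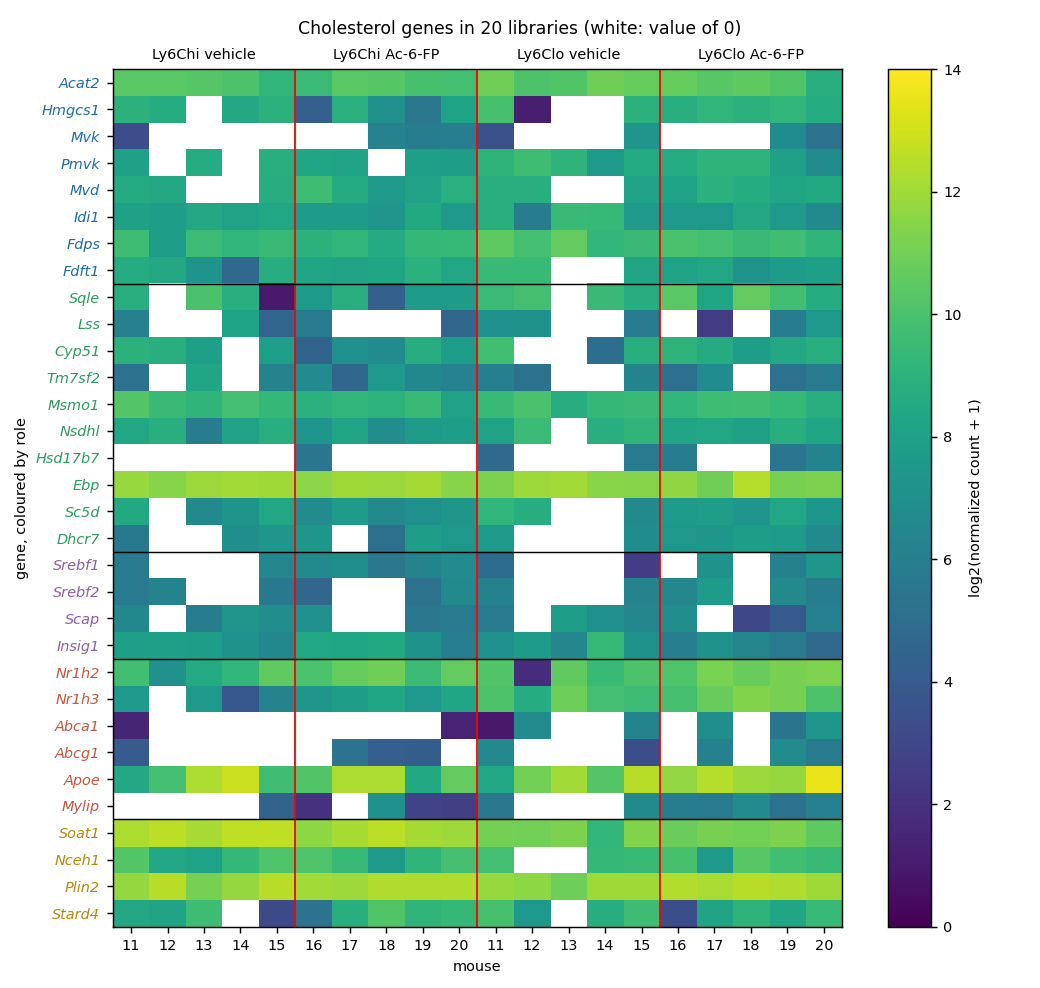
Log2(normalized count + 1) of the 32 genes (rows, ordered and coloured by role) in the 20 libraries (columns, by group and mouse number), with values of 0 in white. White cells gather in mice 12, 13 and 14, where 10 to 19 of the 32 genes were at 0, against 0 to 8 in the other libraries.

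The subsets were compared within mouse first. 2 of the 32 genes differed between Ly6Chi and Ly6Clo MoMac. *Soat1*, which esterifies cholesterol for storage, was higher in Ly6Chi MoMac, and *Nr1h3*, which encodes the liver X receptor alpha, was higher in Ly6Clo MoMac. Both held in 10 of 10 mice. The share of all 17248 genes tested that differed was 5.19% (limma on log2(normalized count + 1), Benjamini-Hochberg adjusted p under 0.05), so that 2 of 32 is near the background and is a result on these 2 genes rather than on the pathway. By direction, 1.76% of all genes were higher in Ly6Chi and 3.44% were higher in Ly6Clo MoMac. This balance depended on the fit, with 2.85% and 3.58% after quantile normalization and, in the opposite order, 5.68% and 4.19% when the count of detected genes was a term. The median log2 difference (Ly6Chi minus Ly6Clo) was -0.12 over the 32 genes and -0.03 over all genes tested.

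*Soat1* read 4958, 6344, 4632, 6542 and 6509 in the Ly6Chi libraries of vehicle mice 11 to 15, and 2191, 2047, 2448, 620 and 2600 in their Ly6Clo libraries. In Ac-6-FP mice 16 to 20 it read 3091, 4599, 6325, 4408 and 4014 in Ly6Chi and 1777, 2228, 2098, 2389 and 1489 in Ly6Clo MoMac. The lowest Ly6Chi value lay above the highest Ly6Clo value, so the subsets did not overlap. The mean was 5142 ± 1215 in Ly6Chi against 1989 ± 580 in Ly6Clo MoMac (SD, n = 10 each), and within a mouse the ratio ran from 1.74 to 10.6 with a median of 2.38. The ratio of 10.6 came from mouse 14, whose Ly6Clo value of 620 was the lowest. The log2 difference was 1.42 (SE 0.22, limma adjusted p = 0.00164), and an exact sign-flip permutation test over the 10 mice gave p = 0.00195, two-sided, the smallest that 10 mice allow. A gene was higher in Ly6Chi in 10 of 10 mice in 1.87% of all genes.

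*Nr1h3* read 191, 0, 192, 13.5 and 75.2 in the Ly6Chi libraries of vehicle mice 11 to 15, and 1099, 401, 1908, 900 and 763 in their Ly6Clo libraries. In Ac-6-FP mice 16 to 20 it read 172, 232, 311, 173 and 313 in Ly6Chi and 950, 1712, 2610, 2224 and 1069 in Ly6Clo MoMac. Here too every Ly6Clo value lay above every Ly6Chi value. The mean was 167 ± 109 in Ly6Chi against 1363 ± 710 in Ly6Clo MoMac (SD, n = 10 each). The ratio of Ly6Clo to Ly6Chi ran from 3.41 to 66.5 in 9 mice with a median of 8.40, and in mouse 12, whose Ly6Chi library was at 0, it was at least 125 against the floor of 3 reads. The log2 difference was -3.76 (SE 0.60, limma adjusted p = 0.00192), with an exact permutation p of 0.00195 over the 10 mice. Without mice 12, 13 and 14 it was -2.81 (adjusted p = 0.000386), so part of its size rests on these mice. A gene was higher in Ly6Clo in 10 of 10 mice in 1.98% of all genes. The annotation places 34 exonic bases of *Nr1h3* in common with *Gm13783* on the same strand.

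**Figure D2:**
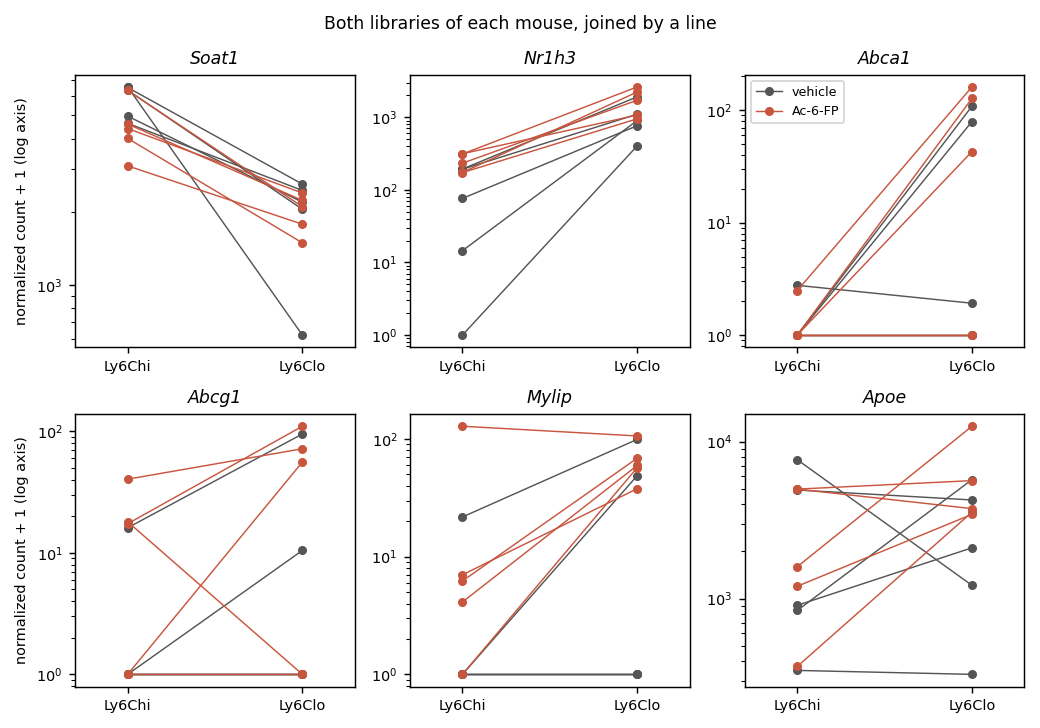
Normalized count + 1 (log axis) of 6 cholesterol genes in both libraries of each mouse, joined by a line and coloured by treatment. *Soat1* falls and *Nr1h3* climbs from Ly6Chi to Ly6Clo in 10 of 10 mice, whereas *Abca1*, *Abcg1* and *Mylip* are at 0 in several libraries of both subsets and *Apoe* lines cross.

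The other liver X receptor, *Nr1h2*, did not pass the test. It ranged from 135 to 2024 with a median of 953 in Ly6Chi and from 2.48 to 2479 with a median of 1339 in Ly6Clo MoMac, and was higher in Ly6Clo in 7 of 10 mice. Its log2 difference was 0.06 with a 95% interval from -1.15 to 1.28, which leaves room for a more than 2-fold difference either way. It was -0.52 without mouse 12, whose Ly6Clo value was 2.48, and -0.36 without mice 12, 13 and 14.

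Among the targets in efflux, *Abca1*, the transporter that hands cholesterol to lipid-poor apolipoprotein, was above 3 reads in 0 of 10 Ly6Chi and 5 of 10 Ly6Clo libraries. The Ly6Chi values were 1.77 in mouse 11, 1.49 in mouse 20 and 0 in the other 8. In Ly6Clo MoMac *Abca1* read 0.92, 108, 0, 0 and 78.5 in vehicle mice 11 to 15 and 0, 127, 0, 42.0 and 160 in Ac-6-FP mice 16 to 20. The subsets overlapped at 0, and the log2 difference of -3.10 (SE 1.02) did not pass the test over all genes (adjusted p = 0.120). Its size depends on the pseudocount, and over the alternatives it ran from -5.99 to -1.66.

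*Mylip*, which encodes a ubiquitin ligase that degrades lipoprotein receptors, had a log2 difference of -2.31 (SE 0.81, adjusted p = 0.149). It was at 0 in 5 of 10 Ly6Chi and 3 of 10 Ly6Clo libraries, with medians of 1.56 and 52.0. *Abcg1*, which passes cholesterol to high-density lipoprotein, was at 0 in 6 and 5 of 10 libraries and reached 39.3 in Ly6Chi and 109 in Ly6Clo MoMac (log2 difference -1.11, adjusted p = 0.543). *Apoe*, the apolipoprotein that macrophages release with cholesterol, ranged from 347 to 7669 in Ly6Chi and from 327 to 12537 in Ly6Clo MoMac, with medians of 1395 and 3646. Its log2 difference was -0.86 with a 95% interval from -1.96 to 0.25, and it was higher in Ly6Clo in 6 of 10 mice. In all, 5 of the 6 genes of this role had a difference below 0 and 1 passed the test, with a median log2 difference of -1.71. *Abca1* met the filter on low values only through Ly6Clo MoMac, where it was higher, and without it the median was -1.11 with 4 of 5 below 0.

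In the storage and transport role *Soat1* alone passed the test. *Plin2*, which coats lipid droplets, was at similar levels in both subsets, 4425 ± 1144 in Ly6Chi and 4216 ± 1131 in Ly6Clo MoMac (SD, n = 10 each), and the 95% interval of its log2 difference of 0.08 was narrow, from -0.21 to 0.36. *Nceh1*, which hydrolyses cholesterol esters, had a log2 difference of 1.67 (95% interval -0.53 to 3.86), which was 0.92 without mouse 12, 0.96 without mouse 13 and 0.03 without mice 12, 13 and 14. It was at 0 in the Ly6Clo libraries of mice 12 and 13 and above 3 reads in all 10 Ly6Chi libraries. *Stard4*, a sterol carrier, had a difference of -0.20 (95% interval -3.16 to 2.77), which was -1.29 without mouse 13 and 0.75 without mouse 14.

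None of the 18 enzymes of synthesis passed the test. The 8 enzymes up to squalene split into 4 with a difference above 0 and 4 below it, with a median log2 difference of -0.06. *Fdps*, which makes farnesyl diphosphate, came nearest, at 590 ± 173 in Ly6Chi and 932 ± 353 in Ly6Clo MoMac (SD, n = 10 each). It was higher in Ly6Clo in 9 of 10 mice (log2 difference -0.65, SE 0.25, adjusted p = 0.197). The annotation places 1124 exonic bases of *Fdps* in common with *Gm43738* on the same strand, so that reads may be shared. *Pmvk*, phosphomevalonate kinase, had a difference of -2.80 (SE 1.17, adjusted p = 0.241) and was at 0 in 3 of 10 Ly6Chi and in 0 of 10 Ly6Clo libraries. The difference of *Pmvk* was -1.48 without mice 12, 13 and 14. *Acat2*, which makes acetoacetyl-CoA, *Mvd* and *Idi1*, which decarboxylate and isomerise the isoprenoid units, and *Hmgcs1*, which makes HMG-CoA, had differences of -0.30, 0.02, 0.08 and 0.40. *Hmgcs1* was higher in Ly6Clo in 7 of 10 mice despite a mean difference above 0, and it was at 0 in 3 of the 20 libraries. Its difference was -1.71 without mice 12, 13 and 14. *Mvk*, mevalonate kinase, was at 0 in 6 of 10 libraries of each subset. *Fdft1*, squalene synthase, had a difference of 1.35 (adjusted p = 0.409), which was 0.70 without mouse 13 and 0.36 without mice 12, 13 and 14, and has 774 exonic bases in common with *Ctsb* on the opposite strand.

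The 10 enzymes from squalene to cholesterol also split evenly, 5 above 0 and 5 below it, with a median of -0.03 on the log2 scale. These splits rested in part on mice 12, 13 and 14, without which 2 of these 10 and 3 of the 8 enzymes up to squalene were above 0, and 0 of the 18 passed. *Ebp*, the sterol isomerase, was measured well in every library and read 3671 ± 591 in Ly6Chi and 3200 ± 1098 in Ly6Clo MoMac (SD, n = 10 each). Its log2 difference was 0.25 with a 95% interval from -0.13 to 0.63. *Msmo1*, the methylsterol oxidase, read 659 ± 254 and 679 ± 175, and its interval of -0.60 to 0.42 was likewise narrow. *Sqle*, squalene epoxidase, was higher in Ly6Clo in 8 of 10 mice, but its values ran from 0 to 1005 in Ly6Chi and from 0 to 1578 in Ly6Clo MoMac (log2 difference -2.07, adjusted p = 0.508). Its difference was -1.21 without mouse 12 and -3.41 without mouse 13. *Hsd17b7* was above 3 reads in 1 of 10 Ly6Chi and 5 of 10 Ly6Clo libraries (adjusted p = 0.206), and it met the filter on low values only through Ly6Clo MoMac. Without it the split was 5 above 0 and 4 below. *Lss*, *Cyp51*, *Tm7sf2*, *Nsdhl*, *Sc5d* and *Dhcr7* had differences from -0.67 to 1.10 on the log2 scale, with adjusted p-values of 0.639 and above, and each was at 0 in at least 1 library. Leaving out 1 mouse could turn the sign of each except *Tm7sf2*, which ran from 0.31 to 1.81.

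Of the sterol sensors, *Insig1*, which holds the SREBP complex in the endoplasmic reticulum, was detected in all libraries. It had medians of 230 in Ly6Chi and 110 in Ly6Clo MoMac and was higher in Ly6Chi in 8 of 10 mice (log2 difference 0.75, SE 0.49, adjusted p = 0.466). *Srebf1* and *Srebf2*, which encode the SREBP factors, and *Scap*, their escort, had differences of 1.64, -0.48 and -0.20 and adjusted p-values of 0.376, 0.833 and 0.887. With 1 mouse left out these ran from 1.08 to 1.89, from -1.23 to 0.32 and from -0.40 to 0.12. *Srebf1* was at 0 in 3 of 10 Ly6Chi and 5 of 10 Ly6Clo libraries and *Srebf2* in 4 of 10 libraries of each subset.

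**Figure D3:**
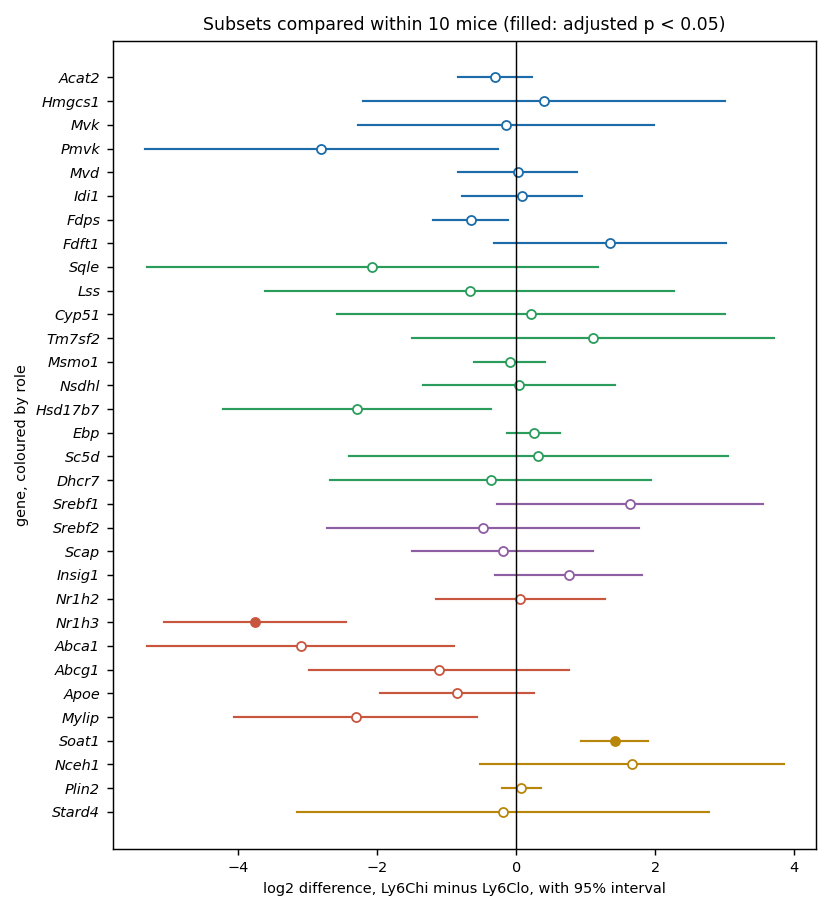
Log2 difference (Ly6Chi minus Ly6Clo, within 10 mice) of the 32 genes with its 95% interval, coloured by role, with filled points for an adjusted p under 0.05. *Soat1* at 1.42 and *Nr1h3* at -3.76 are filled, and intervals are narrow for *Plin2* and *Ebp* and several log2 units wide for genes with values of 0.

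Markers of the sorted subsets were checked against the labels. *Ly6c2* was higher in Ly6Chi by 3.46 and *Ccr2* by 1.40 on the log2 scale (adjusted p = 1.43e-07 and 0.00108), and 7 of 7 Ly6Chi monocyte markers were higher in Ly6Chi. *Cx3cr1*, a marker of the Ly6Clo state, had a log2 difference of -0.45 (adjusted p = 0.297), and 4 of 10 Ly6Clo markers were higher in Ly6Clo MoMac. The subsets also differed in transcripts that mark other cells, and single genes carried much of several sums. The sum of the 6 T and NK cell markers found was 0 to 812 in Ly6Chi and 39540 to 86104 in Ly6Clo libraries, with 4 of 5 tested higher in Ly6Clo. The sum of 7 neutrophil markers was 8755 to 15094 against 10090 to 132509 (3 of 7 higher in Ly6Clo, 1 of 7 higher in Ly6Chi), that of 6 dendritic cell markers was 0 to 358 against 892 to 11451 (2 of 6 higher in Ly6Clo), and that of 11 hepatocyte markers was 4808 to 11691 against 7984 to 13860 (3 of 10 tested higher in Ly6Clo). B cell markers summed to 80.2 to 743 against 0 to 1284, endothelial markers to 31.9 to 338 against 0 to 4451 and Kupffer cell markers to 0 to 281 against 0 to 899, with 1 of each list higher in Ly6Clo. *Trf*, a hepatocyte marker, had group means of 6041 to 6793 (log2 difference 0.02, limma adjusted p = 0.946). In Ly6Clo vehicle and Ac-6-FP MoMac *Ccr7* (means 2623 and 3685) led the dendritic cell sum and *Pecam1* (836 and 2129) the endothelial sum. In Ly6Chi MoMac *Mmp8* (8632 and 6080) and *S100a8* (4326 and 3639) led the neutrophil sum, with *Camp*, *Ltf* and *Ngp* at 0 to 3.28. None of the 3 stellate cell and 5 cycling markers tested passed the test. Stellate cell markers summed to 0 to 968 in Ly6Chi against 0 to 306 in Ly6Clo libraries. Cycling markers summed to 625 to 4264 against 0 to 818, with a median log2 difference of 2.61. *Lrat* and *Reln*, which define stellate cells, were at 0 in all libraries. The part of these other transcripts in the differences of *Soat1* and *Nr1h3* was not tested.

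Other genes of cholesterol and lipid handling, from a list of 42 of which 37 were tested, differed between the subsets in 6 cases, or 16.2% of the 37, against 5.19% of all genes. Without the 6 of the 37 that met the filter on low values through 1 subset only, *Scd1* among them, it was 5 of 31, or 16.1%. The list was drawn up with earlier results of these data known. *Npc2*, which carries cholesterol out of the lysosome, was higher in Ly6Chi by 0.93 on the log2 scale (SE 0.08, adjusted p = 8.53e-06, 10 of 10 mice). *Msr1*, a scavenger receptor for modified lipoproteins, was higher in Ly6Chi by 2.19 (SE 0.33, adjusted p = 0.00118, 10 of 10 mice). Both therefore went the way of *Soat1*.

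*Cd36*, also a scavenger receptor, went the opposite way, from 0 to 301 in Ly6Chi and from 2479 to 5305 in Ly6Clo MoMac (log2 difference -5.30, SE 0.72, adjusted p = 0.000546). *Lpcat3*, a phospholipid acyltransferase, had a difference of -1.26 (adjusted p = 0.0196) and *Pltp*, the phospholipid transfer protein, one of -5.03 (adjusted p = 0.0133). Both genes are known targets of the liver X receptors, as are *Abca1*, *Abcg1*, *Apoe* and *Mylip*, which did not pass the test. A part of the receptors in these differences was not tested. The sixth was *Scd1*, the stearoyl-CoA desaturase (adjusted p = 0.0199). It was at 0 in all 10 Ly6Chi libraries and had a mean of 46.0 in Ly6Clo MoMac, with 3 of the 10 libraries at 0, and it passed the test in 4 of the 10 fits that left out 1 mouse. Since *Scd1* entered the test only through the group in which it was high, its call carries no weight in the count. *Pltp* and *Scd1* did not pass with edgeR, and *Lpcat3* had an adjusted p of 0.051 without mouse 16. When the fit took each library's count of detected genes into account 10 of these 31 passed, where the share of all genes went up to 9.87%. With edgeR 4 passed, beside 3.39% of all genes. The number was also 4 without mice 12, 13 and 14, *Lpcat3* being lost, beside 6.45% of all genes.

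**Figure D4:**
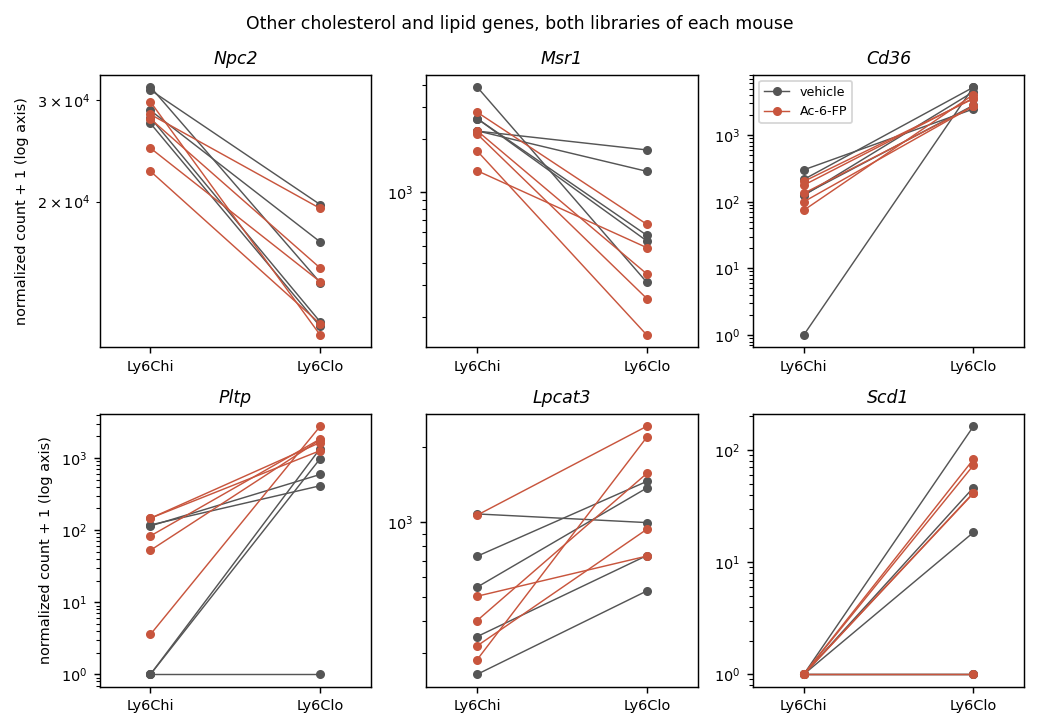
Normalized count + 1 (log axis) of the 6 other lipid genes that passed the test over 10 mice, both libraries of each mouse joined by a line and coloured by treatment. *Npc2* and *Msr1* are higher in Ly6Chi in 10 of 10 mice, *Cd36* is higher in Ly6Clo in 10 of 10, and *Lpcat3* in 9 of 10.

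Split by treatment, the same 2 genes passed in the 5 vehicle mice, where 2.35% of all genes did. *Nr1h3* had a log2 difference of -4.75 (SE 0.78, adjusted p = 0.0067) and *Soat1* one of 1.69 (SE 0.31, adjusted p = 0.0118), each in 5 of 5 mice. The adjusted p of *Soat1* was 0.0545 without mouse 12 and 0.0513 without mouse 15. It was 0.0596 without mice 12, 13 and 14, which leaves vehicle mice 11 and 15 only. With edgeR the adjusted p of *Nr1h3* was 0.0571. The share of all genes was 1.24% with edgeR and 7.7% when the count of detected genes was a term. *Nceh1*, *Fdps* and *Pmvk* came next, at 3.52, -0.80 and -3.71 on the log2 scale with adjusted p-values of 0.248, 0.353 and 0.356. Without mice 12, 13 and 14 they were 0.57, -0.47 and -0.45, and that of *Nr1h3* was -2.92.

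In the 5 Ac-6-FP mice 0 of the 32 passed with limma, against 2.94% of all genes, and 0 with edgeR, against 1.16%, and 5 of the 32 had an unadjusted p under 0.05, as had 13.0% of all genes. *Soat1* was still higher in Ly6Chi in 5 of 5 mice (log2 difference 1.15, SE 0.31, adjusted p = 0.0796) and *Nr1h3* higher in Ly6Clo in 5 of 5 (-2.77, SE 0.78, adjusted p = 0.102). Without mice 12, 13 and 14, which share the spread of this fit, the adjusted p was 0.00713 for *Soat1* and 0.00424 for *Nr1h3*. *Mylip*, *Insig1* and *Abca1* had log2 differences of -3.06, 1.61 and -3.69 with adjusted p-values of 0.253, 0.273 and 0.305. *Insig1* was higher in Ly6Chi in 5 of 5 of these mice and in 3 of 5 vehicle mice. Of the other lipid genes *Npc2* and *Cd36* passed in both treatments, and *Msr1* and *Lpcat3* passed in Ac-6-FP mice. *Fasn*, the fatty acid synthase, also passed there (adjusted p = 0.0179), but it met the filter on low values only through its mean of 62.8 in Ly6Clo MoMac of these mice, the group in which it was high. Whether these differences vary with treatment is tested below by the interaction, in which 0 genes passed.

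The effect of Ac-6-FP was examined next in each subset, with 5 mice per treatment. In Ly6Chi MoMac 0 of the 32 genes passed with limma, where 0.0754% of all genes did, which is 13 genes. EdgeR called 0 of all 17248 genes. An unadjusted p under 0.05 was found for 1 of the 32 and for 8.73% of all genes. Leaving out 1 mouse moved the count over all genes from 13 to between 0 (without mouse 12, 13 or 15) and 133 (without mouse 11), and that of the 32 stayed at 0. The groups did not overlap for 0 of the 32, against 1.35% of all genes. The median log2 change (Ac-6-FP minus vehicle) was 0.26 over the 32 genes and 0.35 over all genes tested. Without mice 12, 13 and 14 the median over all genes was 0, so changes are to be read against this shift, whose cause was not tested. That fit keeps vehicle mice 11 and 15 only. Its calls over all genes were 1 up and 15 down, in place of 11 up and 2 down.

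*Srebf1* had the smallest p in Ly6Chi MoMac. It read 54.0, 0, 0, 0 and 90.0 in vehicle mice 11 to 15 and 98.1, 125, 46.3, 79.9 and 109 in Ac-6-FP mice 16 to 20, so that its 3 zeros fell in the mice with the fewest genes detected. The log2 change was 4.00 (SE 1.53, limma p = 0.0281, adjusted p = 0.543), the exact permutation p was 0.0476, and without mice 12, 13 and 14 the change was 0.31. *Nr1h3* and *Nr1h2* had changes of 2.80 and 1.32 (adjusted p = 0.619 and 0.593), which were 0.94 and 0.21 without these mice. *Msmo1* read 562 to 1216 with vehicle and 272 to 700 with Ac-6-FP, and *Soat1* read 4632 to 6542 and 3091 to 6325. Their changes of -0.64 and -0.39 (adjusted p = 0.586 and 0.614) were -0.84 and -0.38 without mice 12, 13 and 14. The groups overlapped for all 5 genes.

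In Ly6Clo MoMac 0 of the 32 passed with limma, where 0.0522% of all genes did, which is 9 genes, and edgeR again called 0 of all genes. An unadjusted p under 0.05 was found for 5 of the 32 and for 9.31% of all genes. Leaving out 1 mouse moved the count over all genes from 9 to between 0 (without mouse 12, 14, 19 or 20) and 103 (without mouse 11), and that of the 32 stayed at 0. The groups did not overlap for 0 of the 32, against 1.5% of all genes. The median log2 change was 1.21 over the 32 genes and 0.91 over all genes, and the latter too was 0 without mice 12, 13 and 14. The calls over all genes were then 2 up and 48 down, in place of 9 up and 0 down. With all mice, changes above 0 were seen for 23 of the 32, beside a median over all genes that was itself above 0.

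*Plin2* read 3731, 3128, 1949, 4076 and 4136 in vehicle mice 11 to 15 and 5409, 4764, 5676, 5240 and 4047 in Ac-6-FP mice 16 to 20. All but 1 of the Ac-6-FP values lay above every vehicle value, and the log2 change was 0.60 (SE 0.22, limma p = 0.0205, adjusted p = 0.528, exact permutation p = 0.0238). Without mice 12, 13 and 14 it was 0.35. *Hmgcs1* read 980, 1.24, 0, 0 and 518 with vehicle and 439, 591, 508, 589 and 403 with Ac-6-FP. Its change of 4.94 (SE 2.10, adjusted p = 0.530) rested on the 3 low vehicle libraries and was -0.51 without them.

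*Dhcr7*, which reduces 7-dehydrocholesterol to cholesterol, read 181, 0, 0, 0 and 112 with vehicle and 104 to 233 with Ac-6-FP. Its change of 4.58 (adjusted p = 0.528) was 0.28 without mice 12, 13 and 14. *Mylip* was at 0 in the same 3 libraries, and its change went from 3.51 (adjusted p = 0.532) to -0.16. *Insig1* moved the other way, with 132, 206, 87.7, 666 and 147 in vehicle and 63.4, 147, 83.7, 51.4 and 27.8 in Ac-6-FP mice. Its change was -1.53 (SE 0.66, limma p = 0.044, adjusted p = 0.532, exact permutation p = 0.0317) and -1.10 without mice 12, 13 and 14. *Apoe* read 327 to 5726 with vehicle and 3440 to 12537 with Ac-6-FP (log2 change 1.46, adjusted p = 0.564).

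**Figure D5:**
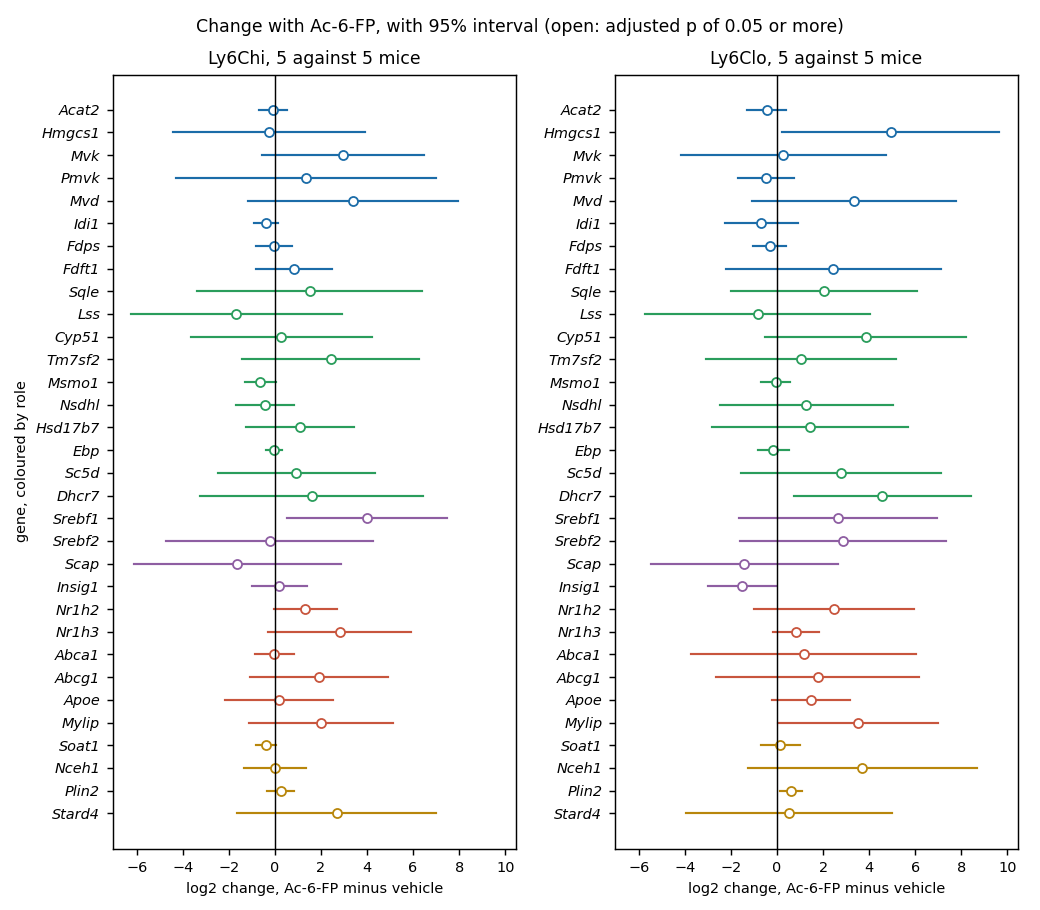
Log2 change with Ac-6-FP (Ac-6-FP minus vehicle, 5 against 5 mice) of the 32 genes with its 95% interval, in Ly6Chi (left) and Ly6Clo MoMac (right), coloured by role. All points are open, since 0 of the 32 passed in either subset. Changes lie above 0 for 19 genes in Ly6Chi and 23 in Ly6Clo MoMac, where the medians over all genes are 0.35 and 0.91.

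The last comparison asked whether the change with Ac-6-FP differed between the subsets. With limma on the within-mouse differences 0 of the 32 and 0% of all 17248 genes passed, edgeR also called 0 of all genes, and 1 of the 32 had an unadjusted p under 0.05, as had 4.87% of all genes. That gene was *Hmgcs1* (difference of changes, Ly6Chi minus Ly6Clo, -5.19 on the log2 scale, SE 1.98, limma p = 0.0234, adjusted p = 0.830, exact permutation p = 0.0397), which was -1.72 without mice 12, 13 and 14. *Nceh1*, *Srebf2*, *Insig1* and *Nr1h3* followed at -3.70, -3.09, 1.72 and 1.98, each with an adjusted p of 0.830 (exact permutation p = 0.0317 for *Insig1*). These were -0.75, -1.55, 1.52 and 0.15 without mice 12, 13 and 14. The difference for *Soat1* was -0.54 with a 95% interval from -1.49 to 0.41. A rule after the study's criterion, with a paired test over the 5 Ac-6-FP mice of their ratios to the vehicle mean, an unadjusted p of at most 0.05 and a fold of at least 1.5, was met by 11 of the 32 and by 24.3% of all genes. That rule leaves out the spread between the vehicle mice. The study chose expressed genes by a background from intergenic regions, a filter not used here, so these calls are not the study's list. The 11 were *Cyp51*, *Fdft1*, *Hmgcs1*, *Insig1*, *Msmo1*, *Nceh1*, *Nr1h2*, *Nr1h3*, *Nsdhl*, *Sc5d* and *Stard4*.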

How the data were processed

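RNA was sequenced (NEBNext low input libraries, reads of 75 bases on an Illumina NextSeq) from Ly6Chi and Ly6Clo MoMac of 10 mice. The authors aligned reads to mm10 with STAR 2.4.0, counted them on FAST DB gene regions and deposited DESeq2-normalized read counts, a signal per gene that is the count divided by 1 size factor per library. Strand use in counting is not given in the sources used here. Values were whole multiples of 1 read in 100.0% of cases in each of the 20 libraries (tolerance 0.006), which gave back the reads and the depth of each library. In the Ly6Chi library of mouse 15 the value of 1 read lies close to 1, and edgeR was also run without that mouse. Groups and mouse numbers came from the labels.

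Here, log2(normalized count + 1) of genes with a mean of at least 10 in at least 1 group was fitted with limma 3.58.1 (R 4.3.3, eBayes with a trend, two-sided), and p-values were adjusted by Benjamini-Hochberg over 17248 genes. Subsets were compared as within-mouse differences, since both libraries of a number came from 1 mouse. The correlation of both libraries' deviations from their group means had a median of 0.0338 (0.00334 to 0.25 over 10 mice), against -0.00496 between other mice of the same treatment. Exact permutation tests used all sign flips of the 10 within-mouse differences or all splits into 5 against 5 mice. The smallest two-sided p is 0.00195 for the former and 0.00794 for the latter. Among the alternatives, the recovered reads were fitted with edgeR 4.0.16 by its quasi-likelihood method. Code was tested on simulated data. Genes named in full were those with an adjusted p under 0.05, filled up to 5 per comparison by the smallest p. The 32 genes, the other gene list and the markers were chosen with earlier results of these data known. Promoters were taken from RefSeq (GRCm38.p6) and exonic overlaps from GENCODE vM21.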

Additional observations from a re-analysis of the deposited data

Results flagged for a closer look

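A library was marked where its gap to the nearest of the other 4 of its group exceeded 0.71 of the group's range, on the log2 scale (Dixon's 95% critical value for 5 samples). This held in 9 of 60 groups tested. Chance marks about 1 in 20 where values are normally distributed, which does not hold with values tied at 0. Where the other 4 were all at 0, any value above 0 was marked, so no excess over chance is read from the count. In vehicle Ly6Chi MoMac the marked values were *Fdps* at 225 in mouse 12 (604 to 793 in the others), *Hmgcs1* at 0 in mouse 13 (346 to 517), *Abca1* at 1.77 in mouse 11 (0 in the others) and *Mylip* at 20.8 in mouse 15 (0 in the others). In vehicle Ly6Clo MoMac they were *Nr1h2* at 2.48 in mouse 12 (701 to 1517) and *Soat1* at 620 in mouse 14 (2047 to 2600). In Ac-6-FP Ly6Chi MoMac they were *Pmvk* at 0 in mouse 18 (233 to 300) and *Abca1* at 1.49 in mouse 20 (0 in the others), and in Ac-6-FP Ly6Clo MoMac *Srebf2* was at 0 in mouse 18 (61.2 to 200.8). The values of *Abca1* lie under the floor of 3 reads. Causes were not tested.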

How the results depend on the processing

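The alternatives were pseudocounts of 0.1 and 10, no filter and a filter at 100, quantile normalization, a covariate for how many genes a library detected, a fit without the pairing, edgeR on recovered reads, and each mouse left out (leaving out mouse 13 also removes its Ly6Clo library, which was to be left out on its own). EdgeR without mouse 15 and limma without mice 12, 13 and 14 were chosen after seeing the data, the latter keeping vehicle mice 11 and 15 only. In the comparison of subsets over 10 mice *Soat1* and *Nr1h3* passed under all of them.

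In vehicle mice the count of 2 became 1 with edgeR (*Soat1*, beside 1.24% of all genes), 0 with edgeR without mouse 15 (0.586%) and 1 without mice 12, 13 and 14 (*Nr1h3*, 1.04%), and leaving out 1 mouse gave 1 to 2 (1.47% to 2.64%). In Ac-6-FP mice the count of 0 became 1 with a pseudocount of 10 (*Nr1h3*, beside 3.31% of all genes), 2 with quantile normalization (3.17%), 2 without mice 12, 13 and 14 (3.91%) and 0 to 1 with 1 mouse left out (1.66% to 3.68%). Without the replicate block it was 1 (*Soat1*, adjusted p = 0.0472, beside 3.0% of all genes), and the block changed no other count of calls among the 32 genes. The rule after the study's criterion gave 11 in place of 0 for the difference between the subsets' changes. In these cases the cause was not tested. The changes of *Hmgcs1* and *Mylip* with Ac-6-FP in Ly6Clo MoMac reversed without mice 12, 13 and 14, to -0.51 and -0.16.

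Of 588 alternative values for 30 single results, 568 kept direction and side of the threshold, 12 gained and 6 lost the threshold, and 2 reversed. With 22 of the 32 genes at 0 in at least 1 library, values of 0 limit what can be said of most single enzymes.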
